A study of Scophthalmus maximus with 8 samples.

Results

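The regions described here held an accessibility peak before metamorphosis and again after it in turbot (*Scophthalmus maximus*), a flatfish, with no reproducible peak at the climax in between. They come from ATAC-seq, in which the Tn5 transposase cuts DNA that is not packed by nucleosomes, so that accessible sites appear as peaks of cut ends. Peaks of the 4 stages that shared at least 1 bp were joined into 114193 regions. A region was a member when it held a peak in the 15dph list and in the 37dph list and none in the 23dph list. This gave 4384 members, 3.84% of all regions (95% Wilson interval 3.73 to 3.95, which here and below covers counting error only). Of these, 2780 also held a 3dpf peak and 1604 did not.

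The 8 samples fall into 4 stages with 2 biological replicates each. The earliest is 3dpf (3 days post fertilization), the phylotypic stage, taken as whole animals. The later ones, in days post hatching, are 15dph before metamorphosis, 23dph at its climax and 37dph after it. At these 3 stages the hind body, from the cloaca on, was cut away, so stage and body portion cannot be told apart when 3dpf is set against the rest. The animals carried no stated genetic change or treatment, the tissues were dissociated into cells together, and the labels say that fish were collected until a set number of cells was reached. The labels attach a list to 23dph whose name carries another day number, and the labels were followed. The deposited data hold 1 consensus list per stage, made from both replicates, so every value below stands without an error over replicates, and stages were compared without a p-value. The lists hold no read depth. A missing peak means that no reproducible peak was listed, not that the site was closed. In such bulk samples fewer cells of a type and a smaller open share per cell cannot be told apart.

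Accessible regions are mostly promoters, where transcription starts, and enhancers, which bind transcription factors and act on promoters at a distance. In flatfish, metamorphosis is driven by thyroid hormone, whose receptors bind DNA and switch from repressing to activating their targets, and it includes the migration of an eye, remodelling of the skull, muscle and skin, and a change of pigmentation. The climax is the time of fastest change in body form. Neither the genes near the members nor their base sequence were analysed here, so the account rests on position, width and peak strength.

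The members were chosen by the presence and absence of peaks, so their number is a description. Of the 35125 regions with peaks at both 15dph and 37dph, 12.5% lacked a 23dph peak (12.1 to 12.8), and 30741 kept one. The same gap at the other later stages gives the scale. Of the 32527 regions with 23dph and 37dph peaks, 5.49% (5.25 to 5.74) lacked a 15dph peak. Of the 38844 regions with 15dph and 23dph peaks, 20.9% (20.5 to 21.3) lacked a 37dph peak. A gap at the climax was therefore more common than a gap before it and less common than an absence after it. The lists differ in length, with 57611 peaks at 15dph, 47853 at 23dph and 46248 at 37dph, and a shorter list leaves more gaps. When each list was cut to its 46248 strongest peaks, the shares were 9.49% for 23dph, 8.49% for 15dph and 17.9% for 37dph. The excess of gaps at 23dph over gaps at 15dph was smaller there.

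The subgroups differed in how often the gap occurred. Among regions with a 3dpf peak, 8.9% (8.59 to 9.22) of those with 15dph and 37dph peaks lacked the 23dph peak. Among regions without one the share was 41.2% (39.7 to 42.8). The same contrast held for the other gaps, with 3.17% and 27.2% for a gap at 15dph and 18.3% and 43.3% for one at 37dph. Read the other way, 63.4% of the members (62.0 to 64.8) held a 3dpf peak, against 92.6% (92.3 to 92.8) of the 30741 regions kept at 23dph. The 3dpf list entered the choice of members only by joining peaks into regions. The value for the 8103 regions missing only at 37dph was 78.5% (77.6 to 79.3) and for the 1786 missing only at 15dph it was 52.2% (49.9 to 54.5), so members lay between these classes. With each list cut to its 46248 strongest peaks, which removes the most peaks at 3dpf, the share among members was 30.1%. The share among kept regions was not taken under this cut, so the contrast between them was not tested there. Among kept regions the share with a 3dpf peak rose with peak strength, and members were weaker than kept regions. The share was therefore also taken, in bands chosen after the data were seen, among regions whose 15dph and 37dph peaks both lay in the same 20 percentile points of their lists. From 0 to 20 points, 46.3% of 553 members (42.2 to 50.5) and 59.8% of 341 kept regions (54.5 to 64.9) held a 3dpf peak. From 20 to 40 points the shares were 64.1% (60 to 68.1) and 75.4% (72.5 to 78.1), and from 40 to 60 points 76.3% (71.2 to 80.7) and 88.7% (87.2 to 90.0). From 60 to 80 points 41 of 42 members held one, or 97.6% (87.7 to 99.6), against 97.1% (96.5 to 97.6) of kept regions. Members thus held a 3dpf peak less often up to 60 points, and above that the intervals overlapped. Within a band members may still be weaker than kept regions, so strength was matched only in part.

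Peak strength was read as the percentile of a peak in its own list by the −log10 p that the authors' peak caller gave, where 100 is the strongest peak. It is read within a list, because −log10 p and fold enrichment over local background also move with sequencing depth. Members with a 3dpf peak had a median percentile of 34.2 at 15dph (quartiles 20.3 and 48.1) and 33.1 at 37dph (17.2 and 49.1). Regions with a 3dpf peak that kept 23dph stood at 74.0 and 67.1. Members without a 3dpf peak had a median percentile of 20.4 at 15dph (10.2 and 32.5) and 29.4 at 37dph (15.4 and 44.4), and their kept counterparts had 38.8 and 38.4. Members thus came mainly from the weaker part of both lists, and among these groups those without a 3dpf peak were the weakest at 15dph. Low strength was not particular to members. Regions missing only at 15dph had median 37dph percentiles of 27.5 with a 3dpf peak and 26.6 without, below members. Regions missing only at 37dph had 15dph medians of 43.9 and 27.6, above members but below kept regions of the same subgroup. In fold enrichment the medians of members were 3.83 at 15dph and 4.14 at 37dph with a 3dpf peak, and 3.52 and 4.02 without one. The kept regions had 5.48 at both stages with a 3dpf peak and 3.98 and 4.34 without one. Both peaks met a global IDR (the expected rate of irreproducible peaks) of 0.01 in 893 of the 2780 members with a 3dpf peak, or 32.1%, and in 265 of the 1604 without one, or 16.5%. In the kept regions the shares were 82.3% and 41.8%.

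**Figure D1:**
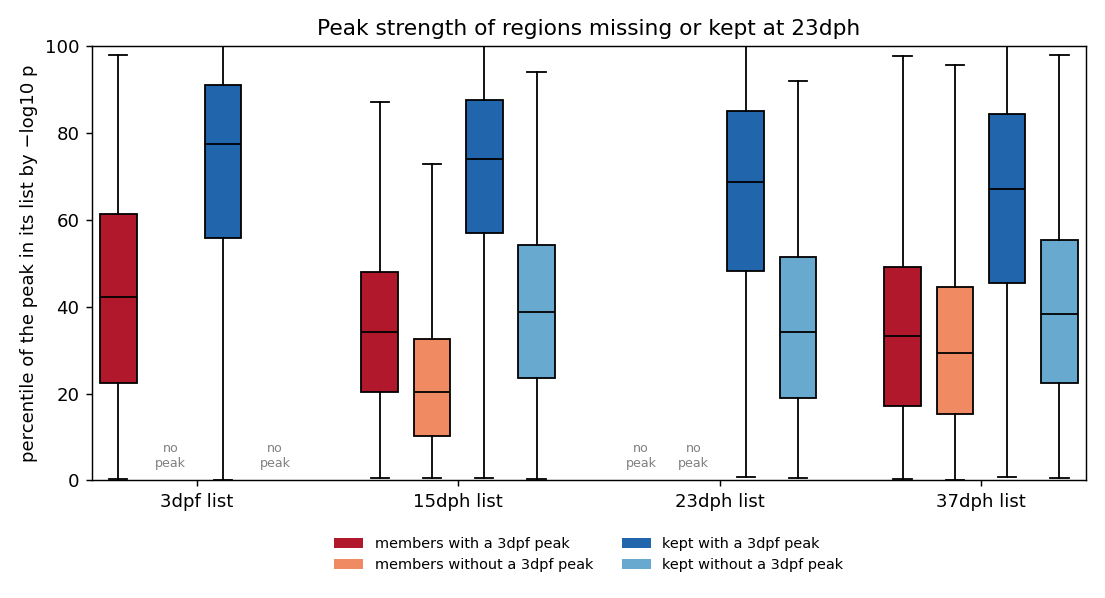
Percentile of the strongest peak of each region in its list, by −log10 p, for members and for regions that kept a 23dph peak (boxes, quartiles with the median as a line; whiskers, lowest and highest). Members have lower boxes than kept regions in every list where they hold a peak, with medians of 34.2 and 20.4 against 74.0 and 38.8 at 15dph.

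The chance of meeting a gap at 23dph fell steadily with the strength of the flanking peaks. Where the weaker of the 15dph and 37dph peaks lay in the lowest 10 percentile points, 46.7% of 2495 regions lacked the 23dph peak. The share was 25.9% at 20 to 30 points, 10.6% at 40 to 50 points and 1.09% at 60 to 70 points. From 80 to 90 points there was 1 member among 3893 regions. From 90 to 100 points there were 0 among 3273, which allows a share of up to 0.0917% by a limit of 3 counts, with a Wilson upper bound of 0.117%. A gap at 15dph fell from 25% in the lowest band to 2.67% at 40 to 50 points, and a gap at 37dph from 54.2% to 23.2%. In each of the 9 bands below 90 points the share missing at 23dph lay between those missing at 15dph and at 37dph. The lists differ in length in the same order, and the bands do not level this. Sites in the strongest band of both lists thus all held a 23dph peak, and the same was seen for 37dph, with 0 of 4147 regions from 90 to 100 points. For gaps at 15dph there was 1 among 2930.

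**Figure D2:**
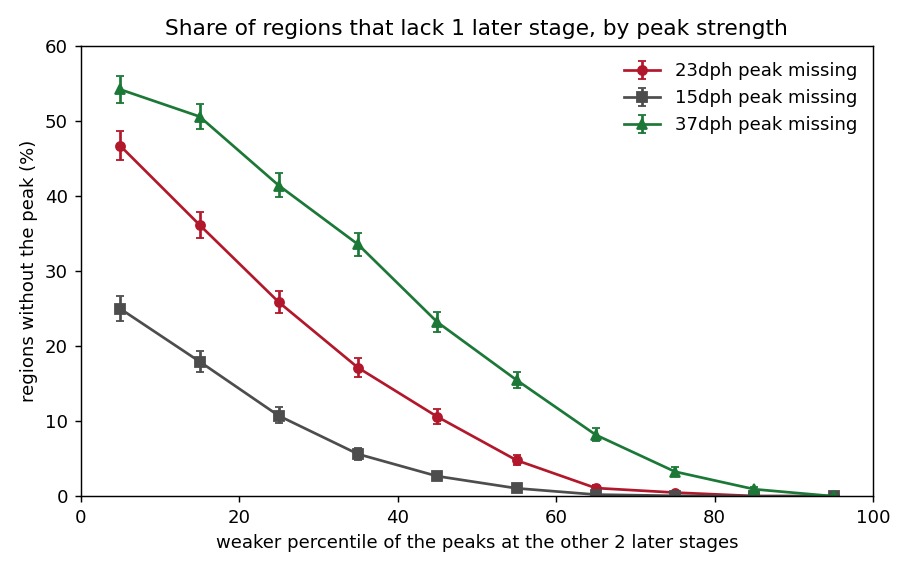
Share of regions that lack the peak of 1 later stage (vertical axis, percent) by the weaker percentile of their peaks at the other 2 later stages (horizontal axis, bands of 10 points), with 95% Wilson intervals as bars. The share missing at 23dph falls from 46.7% in the lowest band to 1.09% at 60 to 70 points. Below 90 points it lies between the curves for 15dph and 37dph, from lists of unequal length.

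Only 254 members had both peaks in the top 50% of their lists, 1.34% (1.18 to 1.51) of the 18981 regions with such peaks. Of these 254, 231 held a 3dpf peak, a share of 90.9% (86.8 to 93.9), and 23 did not. Of the 18727 kept regions with such peaks, 98.1% (97.9 to 98.3) held one, but these tended to be stronger. Where the weaker peak lay at 50 to 60 points, as in 191 of the 254, the shares were 89.5% (84.4 to 93.1) for members and 94.7% (93.9 to 95.3) for kept regions. This band matched only the weaker peak. With a 3dpf peak, the median 15dph percentile in it was 55.8 for members and 63.0 for kept regions. The median 37dph percentile was 59.9 and 57.7. In the whole set 8.31% of the members with a 3dpf peak and 1.43% of those without one had both peaks in the top 50%. For kept regions these shares were 64.6% and 15.2%. The median fold enrichment of the 254 was 4.84 at 15dph and 5.41 at 37dph. Their median gap to the nearest 23dph peak was 1217.5 bp (quartiles 267.5 and 4914.5), shorter than the 2108 bp (532 and 5461) of all members. For all members with a 3dpf peak it was 1898 bp. This gap was not taken for kept regions with both peaks in the top 50%. In 133 members all 3 peaks, the 3dpf peak included, lay in the top 50%, or 4.78% (4.05 to 5.64) of the 2780 members with a 3dpf peak. That share was not taken for kept regions.

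The 10 members with a 3dpf peak whose weaker percentile was highest lay on 10 different chromosomes. Positions are on the ASM1334776v1 assembly, counted from 1. The first lay on chromosome 4 from 1291133 to 1291335. Its fold enrichment was 5.95 at 3dpf, 6.47 at 15dph and 7.18 at 37dph, and its peaks ranked 19500 of 94714, 8151 of 57611 and 5052 of 46248. It was the only member above the 80th percentile in both later lists, and the nearest 23dph peak began 135 bp from its edge. The second lay on chromosome 17 from 13423863 to 13424183, with fold enrichments of 5.31, 5.21 and 6.02 in the same order and a 23dph peak 448 bp away. The third lay on chromosome 11 from 21837406 to 21837625, with 6.29, 6.31 and 6.11, at percentiles of 77.3, 84.1 and 76.9. Its nearest 23dph peak was 2260 bp away. The fourth, on chromosome 9 from 13106319 to 13106519, had 4.0 at 3dpf against 6.19 and 6.90 later, and its 3dpf peak stood only at percentile 12.6. No 23dph peak lay within 13792 bp of it, the widest such gap of the 10. The fifth, on chromosome 3 from 23470271 to 23471343, was far wider than the others, at 1073 bp, with fold enrichments of 5.07, 5.03 and 5.65. A 23dph peak lay 125 bp from it.

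The other 5 were found on chromosome 16 from 14294264 to 14294456, chromosome 2 from 22806428 to 22806718, chromosome 7 from 5053172 to 5053417, chromosome 12 from 12036673 to 12036878 and chromosome 19 from 17632125 to 17632353. Over all 10, the fold enrichment ran from 5.03 to 6.47 at 15dph and from 5.65 to 7.18 at 37dph. At 3dpf it ran from 4.0 to 6.87. In 7 of the 10 the 37dph percentile was above the 15dph percentile. In 5 of the 10 the nearest 23dph peak lay more than 1000 bp away, and the closest lay 74 bp away, beside the member on chromosome 12. The median gap was 1285.5 bp. Among all members with a 3dpf peak, 50.9% had the higher percentile at 37dph and the median gap was 1898 bp.

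The 10 strongest members without a 3dpf peak reached lower percentiles, from 56.1 to 66.9 for the weaker peak against 72.6 to 85.9 in the first subgroup. The first lay on chromosome 22 from 7871203 to 7871405. Its fold enrichment was 5.41 at 15dph and 6.93 at 37dph, where it ranked 19083 and 5835, and a 23dph peak lay 93 bp away. The second, on chromosome 21 from 1015357 to 1015761, had 4.35 and 6.29, at percentiles of 63.9 and 83.2. The third, on chromosome 1 from 19271709 to 19271937, had 5.48 and 5.44 and no 23dph peak within 7834 bp. The remaining 7 lay on chromosome 18 from 10631051 to 10631337, chromosome 13 from 11509434 to 11509780, chromosome 12 from 7297451 to 7297711, chromosome 6 from 10192747 to 10192988, chromosome 3 from 10961082 to 10961289 and from 4099737 to 4099916, and chromosome 21 from 2250221 to 2250428. Over the 10, fold enrichment ran from 4.05 to 5.48 at 15dph and from 4.63 to 6.93 at 37dph. In 8 of the 10 the 37dph percentile was the higher one, and in 8 of the 10 the nearest 23dph peak lay more than 1000 bp away. The median gap was 2213 bp. Among all members without a 3dpf peak, 63.8% had the higher percentile at 37dph and the median gap was 2407 bp.

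**Figure D3:**
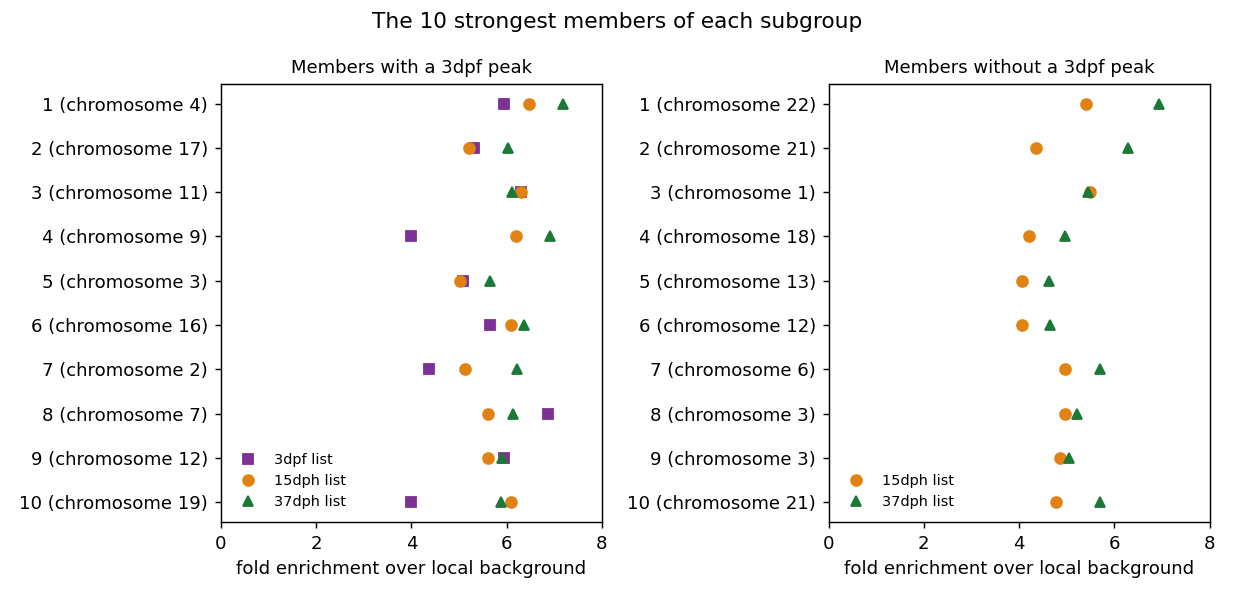
Fold enrichment over local background, as the authors' peak caller gave it, of the 10 strongest members with a 3dpf peak (left) and without one (right), ordered by their weaker percentile. Values run from 4.0 to 7.18 on the left and from 4.05 to 6.93 on the right, and fold enrichment also moves with the depth of each list.

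The member ranked highest in each list is described next, and these 3 were picked after their values were seen. The strongest 3dpf peak of a member, on chromosome 16 from 17793023 to 17793575, had a fold enrichment of 10.9 and ranked 2009 of 94714. Its fold enrichment was 5.78 at 15dph and 4.25 at 37dph. The strongest 15dph peak, on chromosome 9 from 24223392 to 24224144, had a fold enrichment of 7.08 there, 10.3 at 3dpf and 3.90 at 37dph. In both of these the percentile was lower at each later stage that held a peak. No 23dph peak lay within 13823 bp of the former and 13867 bp of the latter. The strongest 37dph peak, on chromosome 4 from 940279 to 940577, held a higher percentile at each later stage with a peak. Its fold enrichment was 4.17 at 3dpf, 4.77 at 15dph and 9.40 at 37dph, where it ranked 1050 of 46248.

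Over the 2780 members with a 3dpf peak, the median 3dpf percentile was 42.3 (22.4 and 61.3), against 77.4 for regions open at all stages. The 37dph percentile was above the 15dph percentile in 50.9% (49.1 to 52.8), against 36.9% (36.4 to 37.5) of the regions open at all stages. Without a 3dpf peak it was higher in 63.8% of members (61.5 to 66.2) and in 50.3% (48.3 to 52.4) of the kept regions. The lists differ in length and members were weaker than kept regions, so these shares are descriptions and show no difference in timing.

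Member regions were narrower than kept regions. The median region width was 245 bp with a 3dpf peak and 195 bp without, against 309 and 254 bp in the kept regions. A region spans all its joined peaks, and kept regions hold a climax peak that members lack. Members with a 3dpf peak likewise span a list that the other members do not. Part of each difference in region width can therefore follow from how regions were joined, and the widths of single peaks do not carry this limit. Regions missing only at 15dph, which also lack a later list, had median region widths of 282 bp with a 3dpf peak and 249 bp without. Those missing only at 37dph had 362 and 310 bp. All members together covered 1281 kb of the 37379 kb in the atlas. The 15dph peak had a median width of 201 bp with a 3dpf peak and 183 bp without, and the 37dph peak 178 and 173 bp. More than 1 peak of a list was rare in members with a 3dpf peak, with 33 regions at 15dph (1.19%) and 52 at 37dph (1.87%). In regions open at all stages the shares were 3.44% and 6.54%. Among members without a 3dpf peak there were 6 such regions at 15dph (0.374%) and 13 at 37dph (0.81%). Their kept counterparts had 0.656% and 1.14%.

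Width rose with strength in the 15dph list, from a median of 172 bp in the lowest 10 points to 279 bp at 80 to 90 points in regions open at all stages, so widths were also compared in bands of 10 percentile points of a peak's own list, using bands with at least 20 regions in each class. At 15dph, the median of members with a 3dpf peak minus that of regions open at all stages ran from −11.5 to 7 bp over 8 bands, and members were narrower in 3 of them. Members without a 3dpf peak were narrower than their kept counterparts in 5 of 6 bands, with differences from −26 to 0.5 bp. Regions missing only at 37dph stood apart from both. In all 8 bands with a 3dpf peak and all 6 without one, members had the narrower 15dph peaks, with differences from −88.5 to −67 bp and from −108.5 to −64 bp. At 40 to 50 points, for example, the medians with a 3dpf peak were 207 bp for members, 204 bp for kept regions and 288 bp for regions missing only at 37dph.

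At 37dph, members were narrower than kept regions in every band compared, with differences from −32 to −9 bp over 9 bands with a 3dpf peak and from −46 to −8.5 bp over 8 bands without one. They were also narrower than regions missing only at 15dph, from −16 to −2 bp over 7 bands and from −58.5 to −3.5 bp over 8 bands. In the 15dph bands compared, members with a 3dpf peak thus lay close to kept regions, and regions missing only at 37dph had wider peaks than members. Above 90 points, where too few members lay to be compared, kept regions with a 3dpf peak had a median of 350 bp and regions missing only at 37dph one of 337 bp.

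**Figure D4:**
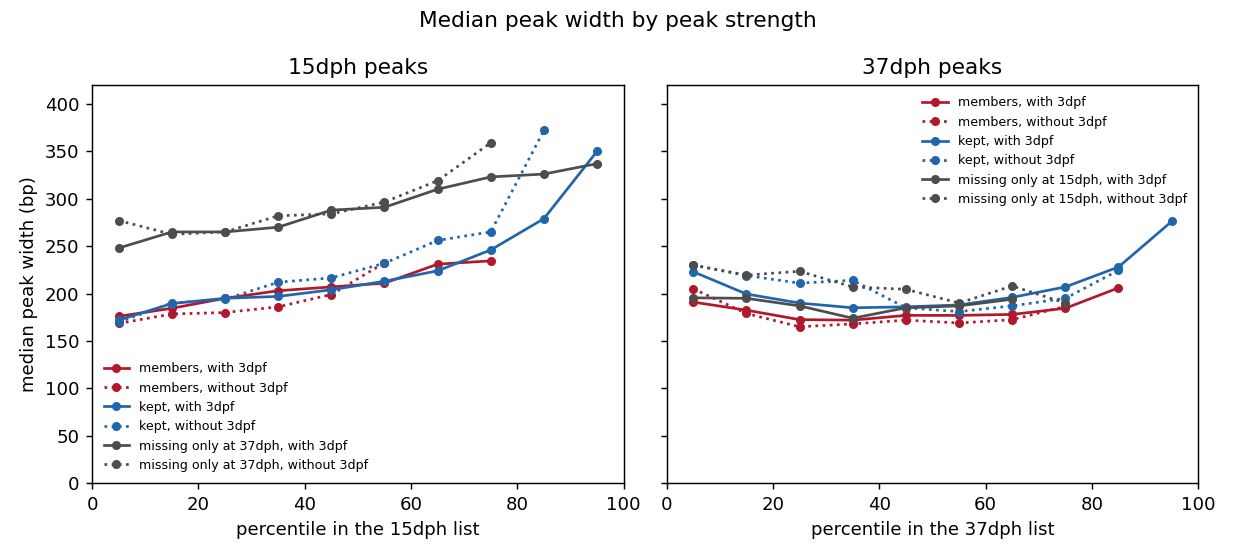
Median peak width (bp) of the 15dph peaks (left) and 37dph peaks (right) by percentile in the same list, for bands with at least 20 regions (solid, with a 3dpf peak; dotted, without). On the left, members with a 3dpf peak lie near kept regions, at 207 and 204 bp for 40 to 50 points. Regions missing only at 37dph lie above both at 288 bp. Members without a 3dpf peak lie below their kept counterparts there in 5 of 6 bands, with differences from −26 to 0.5 bp. On the right, members lie below kept regions of the same subgroup in every band compared, with differences from −46 to −8.5 bp.

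The 15dph and 37dph peaks of a member stood at nearly the same place. Their summits, the points of highest signal, lay a median of 10 bp apart in both subgroups, with upper quartiles of 34 bp with a 3dpf peak and 35 bp without. In the kept regions the medians were 10 and 11 bp. Summits lay within 100 bp in 92.7% of members of either subgroup (91.7 to 93.6 and 91.3 to 93.9), and in 96.1% and 94.1% of kept regions. Joining by overlap already favours close summits. In 2768 of the 2780 members with a 3dpf peak, and in all 1604 without one, the 15dph and 37dph peaks overlapped each other directly. The other 12 were joined only through a 3dpf peak that touched both.

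For most members no 23dph peak lay just beside the region. Members lay a median of 1898 bp (with a 3dpf peak) and 2407 bp (without) from the nearest 23dph peak. For kept regions, the nearest 23dph peak outside the region lay 1952 and 2838 bp away. A 23dph peak lay closer than 100 bp to 275 members with a 3dpf peak, or 9.89% (8.84 to 11.1), and to 8.86% (8.54 to 9.20) of regions open at all stages. Without a 3dpf peak the shares were 5.36% (4.36 to 6.57) for members and 4.24% (3.49 to 5.15) for kept regions. Within 500 bp the shares were 27.8% and 26.5% with a 3dpf peak, and 17.8% and 13.9% without. The intervals of the last pair were 16.0 to 19.8 and 12.5 to 15.4. Closer than 1000 bp the shares without a 3dpf peak were 28.4% (26.3 to 30.7) and 23.6% (21.9 to 25.4). With a 3dpf peak they were 38.7% and 38.1%. These shares are descriptions, and no difference between members and kept regions was tested.

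**Figure D5:**
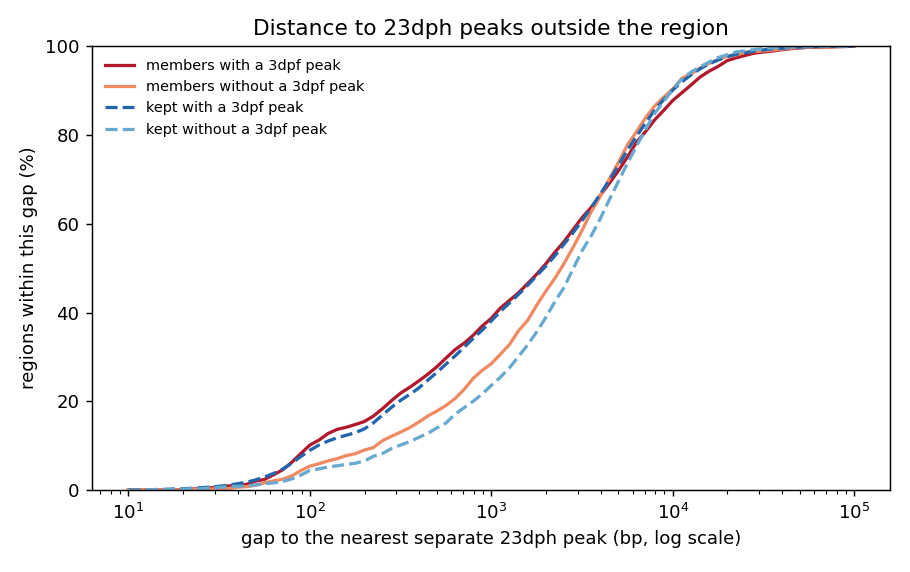
Cumulative share of regions (percent) by the gap between the region and the nearest 23dph peak outside it (bp, log scale), for members (solid) and regions kept at 23dph (dashed). The curves of members and kept regions with a 3dpf peak nearly coincide, with 9.89% and 8.86% closer than 100 bp, and at 1000 bp those without a 3dpf peak lie below them, at 28.4% for members and 23.6% for kept regions against 38.7% and 38.1%.

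The limit of 1 bp also left few borderline cases. Just inside it, the members closest to a 23dph peak were on chromosome 4 from 14029259 to 14029436, with a gap of 1 bp, on chromosome 22 from 9361417 to 9361598, with 8 bp, and on chromosome 12 from 16936045 to 16936543, with 15 bp. There were 75 members with a gap of at most 50 bp, 2.05% of those with a 3dpf peak and 1.12% of those without. A separate 23dph peak lay as close to 2.34% and 1.18% of the kept regions. Just outside it, 0 of the kept regions had an overlap of 1 to 99 bp between a 23dph peak and a 15dph or 37dph peak, counting the largest overlap in each region, and 30738 had at least 100 bp. No peak in any list was narrower than 100 bp, so an overlap that takes in a whole peak cannot be smaller. The 3 smallest overlaps, of 100 bp each, were on chromosome 17 from 1050949 to 1051106, chromosome 20 from 17413109 to 17413277 and chromosome 7 from 17998476 to 17998639. Their 23dph peaks were among the weakest of that list, at percentiles of 0.907, 0.907 and 3.55. A further 3 kept regions held a 23dph peak that touched no 15dph or 37dph peak. In 0.355% of the 28454 regions open at all stages (0.292 to 0.431) a 15dph and 37dph pair was left untouched by any 23dph peak although a broader region around it held one, and these are not members by the rule.

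Members were spread over the genome. The 22 numbered chromosomes held 4382 of them. The share of regions with 15dph and 37dph peaks that lacked 23dph ran from 10.7% on chromosome 19 (9.30 to 12.2) and 10.8% on chromosome 4 (9.56 to 12.2) to 14.3% on chromosome 3 (12.7 to 16.2). On 19 of the 22 chromosomes the interval held the overall 12.5%. The intervals of chromosomes 19 and 4 lay below it and that of chromosome 3 above. The other 2 members lay on an unplaced scaffold and on the mitochondrial sequence. The mitochondrial one, from 39 to 3555, was the widest of all at 3517 bp and barely enriched, at 1.35 at 15dph and 1.58 at 37dph.

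The share of regions with a member beside them was close in members and kept regions. Among regions with 15dph and 37dph peaks taken in order along each sequence, 3357 members, or 76.6% (75.3 to 77.8), had no member next to them, and so had 76.7% (76.2 to 77.2) of kept regions. The other 1027 members stood in runs of 2 or more. There were 412 pairs, 51 runs of 3, 10 runs of 4 and 2 runs of 5. The 2 longest lay on chromosome 18 from 18085150 to 18186551, where 3 of 5 members held a 3dpf peak, and on chromosome 19 from 12389645 to 12465623, where 1 of 5 did. Next to a member, a neighbour closer than 5000 bp lacked 23dph in 11% of 3582 cases (10.02 to 12.07), and next to a kept region in 12.5% of 25524 (12.1 to 12.9). Within 1000 bp the shares were 9.97% (8.59 to 11.56) and 12.2% (11.60 to 12.8). Within 20000 bp they were 11.8% (11.1 to 12.6) and 12.1% (11.9 to 12.4). All of these intervals treat neighbours as independent. A member beside a kept region enters both shares, and a pair of members is counted from each side. The shares are therefore not independent of each other, and no difference between them was tested.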

How the data were processed

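The data are ATAC-seq peaks of 8 turbot samples, 2 biological replicates at each of 4 stages. The authors aligned reads with Bowtie2 to ASM1334776v1, used short nucleosome-free fragments, called peaks with MACS2 and joined replicates by IDR; the labels name bedtools and MACS2. The deposited lists give, per peak, a fold enrichment (a ratio over local background), a −log10 p, a −log10 of the global IDR (at most 0.1 in each list) and an IDR score. The lists give no depth, which limits comparisons between lists. Here, peaks overlapping by at least 1 bp were joined across lists, and the strongest peak of a list stood for a region. The code was tested on simulated lists. Shares carry 95% Wilson intervals (scipy 1.17.1), and no p-value was computed because the lists hold no value per replicate. Named regions are, in each subgroup, the 10 members with the highest weaker percentile by −log10 p, and the 3 on each side of the overlap limit. The members and lists were chosen with earlier results of these data known. A gene table of another assembly was not used, so genes, GC content and motifs were not analysed. Tables were handled in pandas 2.3.3 under Python 3.11.15, and figures drawn with matplotlib 3.10.9.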

Additional observations from a re-analysis of the deposited data

How the results depend on the processing

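The numbers of members in each subgroup, the share missing at 23dph (12.5%) and the share with a 3dpf peak (63.4%) were recomputed under 12 alternatives. Of 48 values, 29 stayed within 1.5 times the count or inside the interval of the share. The others were as follows. The top 50% of each list gave 1261 members with and 996 without a 3dpf peak, 11.9% missing and 55.9% with a 3dpf peak. Cutting each list to its strongest 46248 peaks gave 931 with a 3dpf peak, 9.49% missing and 30.1%, since it removes the most peaks at 3dpf, and the count without one rose to 2159. Asking for 15dph and 37dph peaks in the top 50% of their full lists gave 231 and 23 members, 1.34% and 90.9%. Peaks limited to a global IDR of 0.01 gave 61.5% with a 3dpf peak. Requiring 50% of each peak to be shared gave 13.3% and 58.5%, and summits within 100 bp gave 13.4% and 58.3%. Leaving out members with a 23dph peak within 100 bp gave 11.4% missing, and within 500 bp 9.47% and 60.4%. The left-out members still counted among the 35125 regions, so both shares missing could only fall. A direct overlap of the 15dph and 37dph peaks, and regions joined without the 3dpf list, were added after seeing the data and gave 4372 and 4476 members.

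A stricter limit applied to all lists also makes members of regions with a weak 23dph peak. With a global IDR of at most 0.01 in every list there were 3232 members. In the full lists, 1158 members had both peaks at this limit. The top 50% of each list gave 2257 members, and 254 members of the full lists had both peaks there. The share missing at 23dph lay between those missing at 15dph and at 37dph in all 9 alternatives that gave all of them. No paired analysis was possible because each list merges both replicates, and for the same reason no replicate could be left out. Alternatives for genes, GC content and motifs were not run. Depth is not in the lists and was not used here, and its part in the gaps was not tested.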
